A study of Mus musculus with 32 samples.

Results

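Gene expression 24 h after hypoxia-ischemia (HI) on postnatal day 5 (P5) was measured on 3 two-color microarrays, replicates 1 to 3, out of 24 arrays of HI tissue and 32 arrays in the whole series. The 3 arrays were chosen by their labels alone. On each array, RNA from injured hemispheres carried the dye Cy5 and RNA from naive hemispheres of the same age and time carried Cy3. Pups were NMRI mice, an outbred strain without any transgene or mutation. HI pups had the right common carotid artery tied under isoflurane and then breathed 8% oxygen for 40 min, and the hemisphere on the tied side was taken 24 h later. Naive pups were untreated and not sham-operated, so ligature, anesthesia and low oxygen cannot be told apart. Each channel was 1 pool of 6 hemispheres, and no pool of the HI arrays was used on more than 1 array. The arrays at 3, 6 and 12 h after HI at P5, those at 24 h after HI at P10 (3 per group) and those of naive P2 and P15 pools (4 per age, each pool on 2 arrays with the dyes swapped) were used only for comparison.

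Carotid ligature followed by low oxygen is a standard rodent model of brain injury around birth. Resident microglia and incoming myeloid cells release chemokines, small secreted proteins that attract leukocytes, and astrocytes answer with a reactive program that includes intermediate filament and acute phase genes. Type I and type II interferons signal through STAT and IRF factors, which bind short elements in the promoters of responding genes. Cholesterol of the brain is made within the brain, by a pathway under control of the sterol-sensing factor SREBP2, and neurons, astrocytes and myelinating cells all draw on it. In pooled hemispheres, more cells of a type and more RNA per cell cannot be told apart.

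The unit is the log2 ratio of the HI signal over the naive signal, so that 1 is a doubling in the injured hemisphere. All 3 arrays gave from 64.0 to 70.5% of probes well above background per channel, with no saturated probe. The ratios of replicates 1 and 2 correlated across probes at r = 0.671, those of 1 and 3 at 0.402 and those of 2 and 3 at 0.509. Replicate 2 stood apart in its sex-linked genes. In its naive pool the Y-linked genes Ddx3y and Eif2s3y gave signals of 3.41 and 3.86, neither well above background, against 547 and 594 in its HI pool. Replicates 1 and 3 gave signals from 153 to 711 for both genes in every pool. For Xist, the RNA that silences the second X chromosome of females, the log2 ratio was -0.23, -1.89 and 1.43 on replicates 1, 2 and 3. On replicate 3 Ddx3y was at -0.59 and Eif2s3y at -0.55, opposite to its Xist, so these genes were uneven there too. The methods describe sex-matched groups, and the pools of replicate 2 were furthest from a match in these genes. Counts are therefore given without replicate 2 where they differed.

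Of 11804 named genes tested, 219 were induced (1.86%) and 44 were repressed (0.373%), at a Benjamini-Hochberg adjusted p under 0.05 in limma and a fold change over 1.5. The median log2 ratio of all 11804 genes was -0.01. Induced genes reached larger changes: 92 of 219 had a mean over 2-fold and 23 over 4-fold, against 3 and 0 of 44 repressed genes. All 219 and all 44 lay on the same side of 0 on the 3 arrays, while 133 induced and 13 repressed genes passed 1.5-fold on each array, which 1.16% and 0.11% of all genes tested did. Without replicate 2, 149 genes were induced and 44 repressed, including 134 and 29 of those above. HI RNA always carried Cy5, and after the dye bias seen in naive pools was subtracted 186 of the 219 and 18 of the 44 were still called. Signals normalized anew from raw spot medians gave 82 and 9 calls, 76 and 9 of them among these genes.

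**Figure D1:**
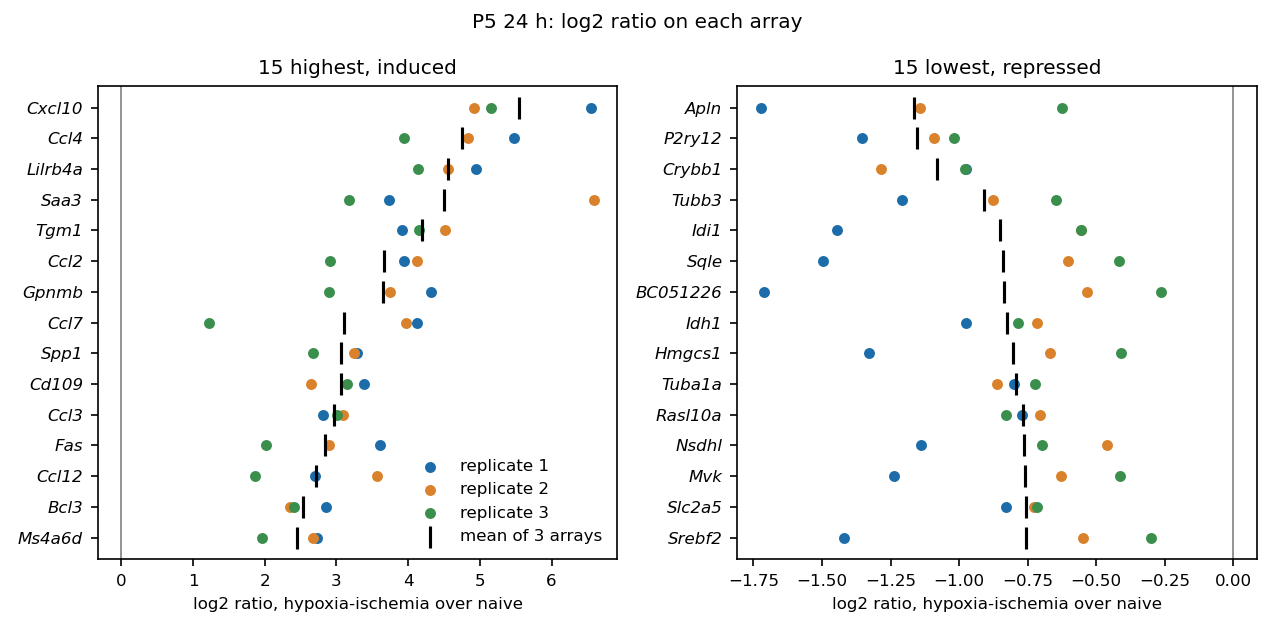
Log2 ratio of HI over naive signal (x axis) of the 15 highest induced and the 15 lowest repressed named genes on each of the 3 arrays (colored points), with the mean as a black bar. Induced genes extend to a mean of 5.54 for Cxcl10, repressed genes to -1.16 for Apln.

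Chemokine ligands held the highest ratios. Of 32 ligands, 15 were tested and 8 were induced, with a list median of 2.00 against -0.01 over all genes. A ligand below the signal minimum in naive pools was tested only if its HI signal reached that minimum. Of the 15 tested, 11 were well above background in all naive pools, and all 15 in all HI pools. Untested ligands are not in the median, so the filter favors high values. Its part in the median was not tested, while the induced count was also 8 without the filter. Cxcl10, which attracts T cells and is driven by interferon, gave 6.55, 4.92 and 5.15 on replicates 1 to 3. Its naive signal was well above background on no array, so its change is a bound, at least 20.7-fold higher after HI (adjusted p = 2.77e-06). Ccl4, an attractant of monocytes and T cells, gave 5.47, 4.83 and 3.94, a mean of 4.75 ± 0.77 (SD, n = 3) or 26.9-fold (adjusted p = 1.30e-07). Ccl3, of the same family, gave 2.81, 3.09 and 3.01, the smallest spread of the 8. The monocyte attractants Ccl2 (3.94, 4.12 and 2.91) and Ccl12 (2.71, 3.56 and 1.86) rose by means of 3.66 and 2.71. Ccl7, of the same family, gave 4.12, 3.97 and only 1.22 on replicate 3 (mean 3.10, adjusted p = 0.0011). Ccl9 and Ccl6 rose by 2.16 and 2.00. Replicate 3 was the lowest array for 6 of the 8, all but Cxcl10 and Ccl3. Among ligands that were not called, the neuronal Cx3cl1 was at -0.33. The count of 8 was also 8 without replicate 2, but 2 with the newly normalized signals.

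Among 9 cytokine ligands tested, Cntf, a survival factor made by astrocytes, rose on all arrays (1.02, 1.03 and 1.43), and so did Csf1, the growth factor of microglia (0.90, 0.97 and 1.57). The list of receptors and their feedback genes had 8 of 27 induced. They were Bcl3 (2.54), Cebpd (1.84), Osmr (1.45), Tnfrsf12a (1.36), Csf2rb (1.31), Socs3 (0.90), Cebpb (0.80) and Stat3 (0.65). Bcl3 is an atypical IkB protein, Osmr the receptor of oncostatin M, and Socs3 an inhibitor that STAT3 itself induces. Without replicate 1, 5 of these 27 were induced, and 6 without replicate 2.

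Interferon-response genes were also high. Of 38 genes 18 were tested, 8 were induced and 17 were above 0, with a median of 0.83. The signal filter favors high values here as for the ligands, and without it 6 genes were induced. Beside Cxcl10, the guanylate-binding GTPase Gbp2 gave 1.79, 2.17 and 1.86 (mean 1.94 ± 0.20 SD, adjusted p = 6.95e-05). Its neighbour Gbp3 gave 1.11, 1.32 and 1.58. Both stood far above 0 on all 3 arrays. Irf8, a transcription factor of myeloid cells, rose by 1.02, the small membrane protein gene Ifi27l2a by 1.01, the GTPase Irgm1 by 0.87, the virus-tethering Bst2 by 0.86 and the entry inhibitor Ifitm3 by 0.85. Oasl2 had a mean of 1.74 and Isg15 of 0.80 without passing the test. The array medians of the list were 0.64, 1.08 and 0.58, highest on replicate 2, and 4 of its genes were induced without that replicate. Ifi27l2a in particular gave 0.66, 1.84 and 0.54.

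The upstream sequences of 5 induced interferon genes are shown because they hold the core of the interferon-stimulated response element, here the letters GAAA, 2 bases of any kind and GAAA again, on either strand. Of 32851 RefSeq promoters (build GRCm38.p6), 2.98% hold it in the 250 bases before the start. Of tested genes with a promoter 2.25% do, of induced genes 10 of 168 (5.95%), of repressed genes 0 of 36, and of induced interferon genes 5 of 7. These 5 are among the 10. The list was written from interferon-response genes, and its members that were not induced were not counted. The 5 of 7 therefore says nothing about induction by HI. Each sequence runs 5′ to 3′ on the strand of its gene and ends at the base before the start, with the element in capitals. Cxcl10 is at chr5:92348890-92349139 on the minus strand, Gbp2 at chr3:142620413-142620662 and Gbp3 at chr3:142559794-142560043 on the plus strand, Irgm1 at chr11:48871421-48871670 and Bst2 at chr8:71537473-71537722 on the minus strand. In Gbp3, Irgm1 and Bst2 the capitals cover 2 overlapping matches each, and in Gbp2 and Gbp3 the element lies on the opposite strand and reads as its complement.
Cxcl10: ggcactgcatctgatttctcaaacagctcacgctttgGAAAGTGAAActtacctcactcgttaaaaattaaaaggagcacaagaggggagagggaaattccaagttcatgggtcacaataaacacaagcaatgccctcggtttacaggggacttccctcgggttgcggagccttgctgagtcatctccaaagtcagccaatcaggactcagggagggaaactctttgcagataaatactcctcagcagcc
Gbp2: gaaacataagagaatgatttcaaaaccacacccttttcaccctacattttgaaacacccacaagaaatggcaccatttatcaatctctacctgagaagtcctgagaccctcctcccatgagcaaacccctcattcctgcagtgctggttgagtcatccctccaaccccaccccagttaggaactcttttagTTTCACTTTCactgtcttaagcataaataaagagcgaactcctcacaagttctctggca
Gbp3: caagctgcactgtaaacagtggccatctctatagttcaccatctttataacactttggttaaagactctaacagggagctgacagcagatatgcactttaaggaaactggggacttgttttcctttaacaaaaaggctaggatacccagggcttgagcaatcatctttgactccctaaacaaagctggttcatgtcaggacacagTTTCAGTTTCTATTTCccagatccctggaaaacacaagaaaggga
Irgm1: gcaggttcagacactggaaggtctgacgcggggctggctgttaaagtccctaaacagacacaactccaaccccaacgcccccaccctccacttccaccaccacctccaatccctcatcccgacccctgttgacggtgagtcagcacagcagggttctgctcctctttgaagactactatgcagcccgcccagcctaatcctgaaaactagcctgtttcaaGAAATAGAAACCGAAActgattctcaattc
Bst2: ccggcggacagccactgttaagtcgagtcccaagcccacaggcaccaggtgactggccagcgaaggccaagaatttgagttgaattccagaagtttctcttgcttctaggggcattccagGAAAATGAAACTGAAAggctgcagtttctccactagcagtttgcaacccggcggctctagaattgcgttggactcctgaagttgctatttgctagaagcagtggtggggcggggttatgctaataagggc
The match describes letters and was not tested as a binding site. The other 5 induced genes with the element were B2m, Ctss, Saa3, Spp1 and Tgm1. The palindrome TTCNNNGAA, the form bound by STAT dimers, stood in 21 of 168 induced promoters (12.5%) and in 0 of 36 repressed ones, against 5.83% of tested genes. The AP-1 element TGANTCA stood in 24 induced promoters (14.3%), among them Cxcl10, Gbp2 and Irgm1, and in 2 repressed ones (5.56%), against 4.03%. The NF-kB consensus was found in 14.9% of induced and 13.9% of repressed promoters, against 8.71% of tested genes.

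Genes of activated microglia and macrophages formed the largest induced group, 20 of 30 tested, with a median of 0.92 (0.78, 1.07 and 0.85 on the 3 arrays). Lilrb4a, an inhibitory receptor of myeloid cells, gave 4.95, 4.56 and 4.14 (mean 4.55, 23.4-fold, adjusted p = 6.63e-06). Gpnmb, a glycoprotein of phagocytes, gave 4.31, 3.74 and 2.90, with the naive signal well above background on no array and a change of at least 7.40-fold. Spp1, the secreted protein osteopontin, gave 3.28, 3.25 and 2.68. The lowest array of these 3 genes was still at 2.68. The endotoxin co-receptor Cd14 rose by 2.43, the lectin Lgals3 (galectin-3) by 2.40 ± 0.25 (SD), Ms4a6d by 2.45 and Tlr2 by 1.80. Trem2, the lipid-sensing receptor of microglia, gave 0.82, 0.76 and 0.90, and its adaptor Tyrobp 0.72, 1.02 and 0.81. The lysosomal genes Ctsz, Cd63 and Ctsb rose by 1.12, 0.71 and 0.64, while Ctsd was at 0.50 and did not pass. Lyz2, a lysozyme of macrophages and neutrophils, was called with a wide spread of 3.38, 1.48 and 0.25. Without replicate 2, 15 of the 30 were induced.

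Complement and Fc receptor genes followed, with 6 of 13 induced and none repressed. C1qa, C1qb and C1qc, which together encode the recognition protein of the classical pathway, rose by 0.76, 0.93 and 0.98, and the downstream C4b gave 0.63, 1.30 and 2.01. The central component C3 was at 0.12 and the receptor subunit Itgam at -0.03. Fcer1g and Fcgr3 rose by 1.03 and 0.71. Without replicate 2, 4 of the 13 were induced. Of 17 antigen presentation genes, Psmb8 (0.86), H2-Ab1 (0.75) and B2m (0.59) were induced, and none of the 17 was called without replicate 2 or without replicate 3.

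Genes held to mark resting microglia did not move as a group: of 16 tested, 3 were induced, 3 repressed and 10 not called, with a median of -0.05. P2ry12, the purinergic receptor that guides microglial processes, gave -1.35, -1.09 and -1.02 (mean -1.15 ± 0.18 SD, 2.23-fold lower, adjusted p = 2.67e-04). Crybb1 gave -0.97, -1.28 and -0.98, and Slc2a5, a fructose transporter, -0.83, -0.73 and -0.72. The 3 arrays lay close together for each of them. In contrast P2ry6, a receptor tied to phagocytosis, gave 0.56, 0.77 and 1.17, Fcrls 0.23, 1.00 and 1.03, and Cx3cr1, the fractalkine receptor, 0.34, 0.68 and 0.88. Tmem119 was at -0.53 and was not called. Without replicate 2, 2 members were induced and 2 repressed, and without replicate 3, 0 and 2. With the newly normalized signals 1 was induced and 0 were repressed.

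Reactive astrocyte genes were induced in 17 of 32 cases, with a median of 0.64. Tgm1, a transglutaminase, gave 3.92, 4.52 and 4.15, at least 7.56-fold because its naive signal was not well above background. Cd109 gave 3.39, 2.64 and 3.14. Gfap, the intermediate filament that defines the reactive state, gave 1.40, 2.21 and 2.47 (mean 2.03 ± 0.56 SD, adjusted p = 1.83e-04), and all 3 of its tested probes were induced. Vim, another filament gene, gave 1.21, 1.55 and 1.87. Both filaments were lowest on replicate 1 and highest on replicate 3. The protease inhibitors Timp1 (1.90, 2.58 and 2.52) and Serpina3n (1.30, 1.92 and 1.75) rose, as did the water channel Aqp4 (0.37, 0.76 and 1.23), the transcription factor Sox9 (mean 0.62) and Nes (0.67). Aqp4, Sox9 and Nes showed the same array order as the filaments. Glutamate transporters and metabolic genes of astrocytes lay near 0, with Slc1a3 at 0.26, Slc1a2 at 0.09 and Aldoc at -0.09. Without replicate 2, 12 of the 32 were induced.

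**Figure D2:**
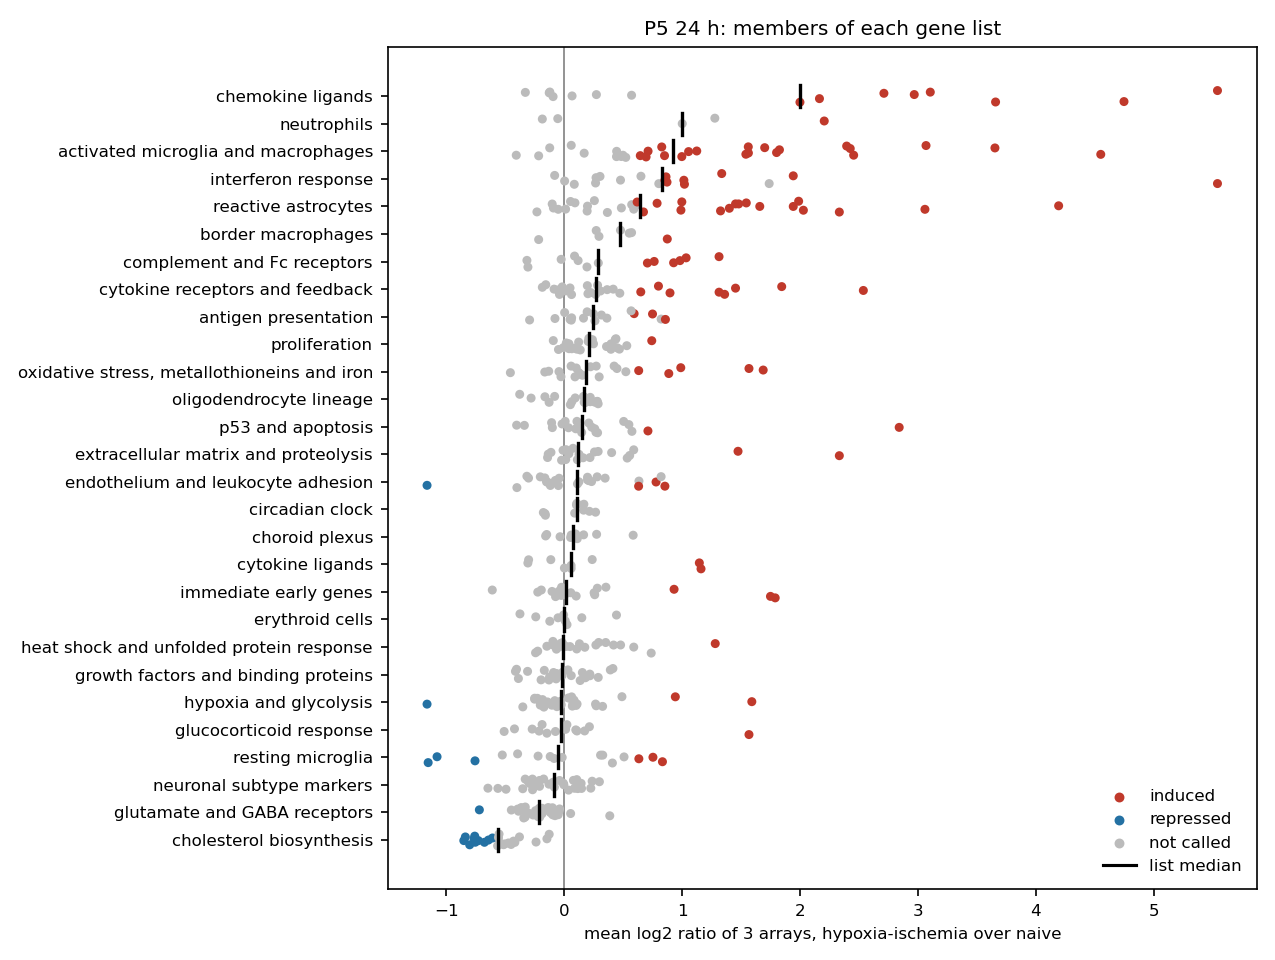
Mean log2 ratio of 3 arrays (x axis) of each tested member of each gene list (rows), colored by call, with the list median as a black line. Chemokine ligands have a median of 2.00 and cholesterol biosynthesis of -0.56, with all 24 cholesterol genes left of 0.

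Other lists held further induced genes. Lists share members, so their counts overlap. Gbp2 and Osmr are also counted as reactive astrocyte genes, and Timp1 also as a matrix gene. The immediate early list, rapidly transcribed genes of which 20 were tested, had 3 induced members and a median of 0.01. Fos gave 1.29, 2.22 and 1.73, Atf3 0.63, 2.29 and 2.45, and Ier3 1.29, 1.30 and 0.20. Without replicate 1 or without replicate 2, 2 of the 20 were induced, and 1 with the 3 arrays alone. The metal-binding metallothioneins Mt1 (2.12, 1.53 and 1.41) and Mt2 (1.81, 1.53 and 1.36) were highest on replicate 1. With Cyba (0.99), Hmox1 (0.89) and Prdx6 (0.63) they made 5 induced genes of 22 in the oxidative stress list. Fas, the death receptor, gave 3.61, 2.90 and 2.01 (7.16-fold, adjusted p = 4.14e-06) and Casp8, the caspase it engages, rose by 0.71, the only called genes of 21 in the p53 and apoptosis list, of which 1 was called without replicate 1 or without replicate 2. Plin2, a lipid droplet protein, rose by 1.59 and Angptl4 by 0.94. These were the 2 induced genes of 34 in the hypoxia and glycolysis list (1 without replicate 1), where the glucose transporter Slc2a1 was at 0.49, Vegfa at -0.25 and Ldha at -0.08. That list also had 1 repressed gene, Apln (-1.16). Of 27 heat shock and unfolded protein genes Hspb8 was induced (1.28), and 3 were with the replicate number as a block. Mcm3, a replication helicase subunit, was the 1 induced gene of 25 in the proliferation list (median 0.21), and 0 were without replicate 2 or without replicate 3. Plaur, the urokinase receptor, rose by 1.47, and with Timp1 made 2 of 22 matrix and proteolysis genes.

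Neutrophil markers differed widely between arrays. Of 18 markers 5 were tested and the array medians were 0.40, 3.18 and -0.23. These medians cover only markers that passed the signal filter in either dye, and without that filter 0 markers were induced. Stfa2l1 gave 1.87, 4.13 and 0.61 and was induced, a call lost without replicate 1, without replicate 2 and with the 3 arrays alone. S100a8 (0.69, 3.37 and -0.23) and S100a9 (0.40, 3.18 and -0.58) were not called. The summed signal of the tested markers was 22010, 37440 and 77270 in the naive pools and 24400, 36680 and 51290 in the HI pools. On replicate 2 this sum fell although Stfa2l1, S100a8 and S100a9 rose there. The sum thus does not follow these markers and is not a measure of neutrophil RNA. Csf3r was at -0.19 and Elane at -0.06. Saa3, an acute phase protein, followed the same order with 3.73, 6.59 and 3.17, at least 7.20-fold. Lcn2, also highest on replicate 2, gave 0.82, 2.27 and 0.89. Replicate 2 was the highest array for each of Stfa2l1, S100a8, S100a9, Saa3 and Lcn2. Its sex-linked difference and its neutrophil values stand side by side, and their part in the other results was not tested.

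Markers of other cells had few calls. Erythroid genes had 0 of 9 tested members called and a median of -0.01. Their summed signal was 102600, 169000 and 209800 in the 3 naive pools and 108900, 172600 and 225200 in the HI pools. Choroid plexus genes had 0 of 10 called, and their sums were higher after HI on each array, with 16020, 30670 and 21520 naive against 18170, 37140 and 26810. Lymphocyte markers had 0 of 4 tested of 15 called, with sums from 2242 to 3818 naive and 2148 to 3508 after HI. Border macrophage markers had a median of 0.48 with 6 of 7 above 0, and 1 called, Lyve1 (0.87), which was lost without replicate 2. Their sums were higher after HI on each array, with 1707, 2916 and 1823 naive against 2273, 4374 and 2390. Monocyte markers had 0 of 3 tested of 11 called, and of 10 pituitary markers 1 was tested and not called. The part of these cells in the results was not tested. Endothelial and leukocyte adhesion genes had 3 induced (Anxa2, Angpt1 and Anxa1) and 1 repressed (Apln) of 25, with a median of 0.11. The 3 became 1 without replicate 1 or without replicate 2 and 5 with the replicate number as a block. The glucocorticoid response list had 1 induced gene, Mt2, of 14, and the circadian clock (10 tested) and growth factor (25 tested) lists had no call by limma.

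**Figure D3:**
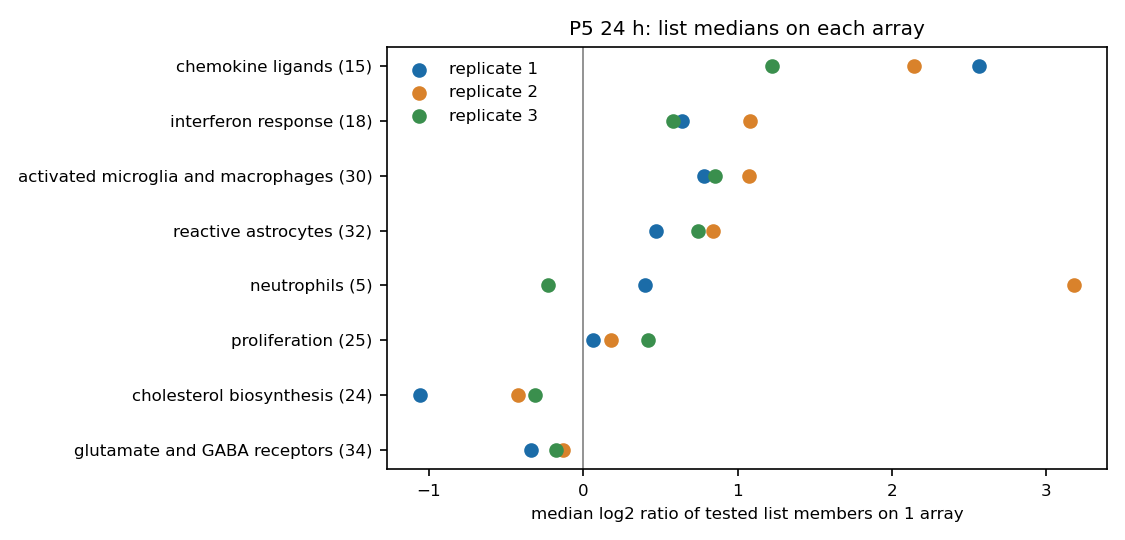
Median log2 ratio of the tested members of 8 gene lists on each array (x axis), with the number of tested genes in brackets. Neutrophil genes separate replicate 2 (3.18) from replicates 1 (0.40) and 3 (-0.23), and cholesterol genes separate replicate 1 (-1.06) from replicates 2 (-0.42) and 3 (-0.31).

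Among repressed genes, cholesterol biosynthesis was the largest group, with 10 of 24 tested genes repressed, none induced and all 24 below 0 (median -0.56). The mevalonate arm was represented by Hmgcs1 (-1.33, -0.67 and -0.41), Mvk (-1.24, -0.63 and -0.41), Idi1 (-1.45, -0.55 and -0.56) and Fdps (mean -0.64). In the sterol arm, Sqle, the squalene epoxidase, gave -1.5, -0.60 and -0.42, Nsdhl -1.14, -0.46 and -0.70, Msmo1 -1.32, -0.49 and -0.38, and Dhcr7 a mean of -0.61. On all of these genes replicate 1 was lowest. The regulators Srebf2, which encodes SREBP2, and Insig1, its sterol-dependent retention partner, fell by 0.76 and 0.68. Ebp, at the weak end of the list, was at -0.13. Leaving out replicate 1 left 0 of the 24 repressed, leaving out replicate 2 left 11 and leaving out replicate 3 left 14. With the spread taken from the 3 arrays alone, 1 was repressed, so the call of the list rested on replicate 1, while the list median was below 0 on each array.

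Hmgcs1, an enzyme of the mevalonate arm, is shown because its promoter was the only 1 of 8 repressed cholesterol genes in the table to hold the sterol element TCACNCCAC, here in capitals, at chr13:119690101-119690350 on the plus strand. The element is in 1.05% of all promoters and 0.903% of those of tested genes, and among induced genes in 6 of 168.
Hmgcs1: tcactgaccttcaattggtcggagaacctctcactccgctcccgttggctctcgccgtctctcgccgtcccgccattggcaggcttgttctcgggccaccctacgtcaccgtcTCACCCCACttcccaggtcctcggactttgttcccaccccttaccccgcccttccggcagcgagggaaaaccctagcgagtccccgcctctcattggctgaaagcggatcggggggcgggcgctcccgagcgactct

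Apln, the vascular peptide apelin, was the lowest gene, at -1.72, -1.14 and -0.62 (mean -1.16, 2.24-fold lower, adjusted p = 5.98e-05). Idh1, which makes cytosolic NADPH, gave -0.97, -0.72 and -0.79, and Oxct1, which lets brain cells use ketone bodies, had a mean of -0.66. Other repressed genes included the extrasynaptic GABA receptor subunit Gabrd (-0.73, -0.68 and -0.75), the Ras-like GTPase Rasl10a (-0.77, -0.71 and -0.83), the stress peptide receptor Crhr1 (-0.72, -0.76 and -0.59), the complexin Cplx3 (mean -0.60) and the potassium channel Kcnb2 (-0.62). Gabrd was the 1 repressed gene of 34 glutamate and GABA receptor genes, of which 32 were below 0 (median -0.22). That count was 0 after the dye bias was subtracted and 0 with the newly normalized signals. Neuronal subtype markers (31 tested, median -0.08) and oligodendrocyte genes (18 tested, median 0.17) had no call in either direction by limma, except for 1 repressed subtype marker with the replicate number as a block or without replicate 3. The most extreme of the 3 arrays was replicate 1 for 31 of the 44 repressed genes. Among the 219 induced genes the median ratio was highest on replicate 2 (1.05, against 0.83 and 0.96 on replicates 1 and 3).

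The earlier groups at P5, which share no pool with the 24 h arrays, gave the history of these genes. They lay on the same slides as the 24 h arrays, and HI RNA always carried Cy5. A dye difference of a gene would recur at each time, and its part in these overlaps was not tested. Of the 219 induced genes, 46 were also induced at 3 h, 100 at 6 h and 167 at 12 h, against 1.83%, 2.38% and 3.19% of all genes tested. Their median log2 ratio was 0.25, 0.64 and 0.94 at these times and 0.92 at 24 h. At all 3 earlier times 45 were called, and 51 at none. Of the 44 repressed genes 1, 6 and 32 were repressed at 3, 6 and 12 h (0.491%, 1.01% and 1.73% of all genes), with medians of -0.10, -0.31 and -0.74 before -0.69 at 24 h. In the direct comparison of 24 with 12 h, no gene passed in either direction of 11792 tested by limma, while 25 were higher and 50 lower at an unadjusted p under 0.05.

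Differences from 3 and 6 h were tested in the same fit, on genes chosen by their 24 h values, and are given as descriptions. Of the 219 induced genes 53 were higher at 24 than at 3 h and 5 lower, where 0.995% and 1.2% of all genes were. Compared with 6 h, 9 were higher and 4 lower (0.341% and 0.444%). Over all genes 40 were higher and 52 lower than at 6 h, and 85 and 83 with the replicate number as a block. These counts also moved with single arrays. Trem2 had means of 0.16, 0.01 and -0.03 at 3, 6 and 12 h before 0.83 at 24 h, and its difference from 6 h was 0.81 ± 0.15 (SE, adjusted p = 0.0131). No gene, Trem2 included, passed against 12 h. Aqp4 went from -0.04 at 6 h to 0.79, Gusb, a lysosomal enzyme, from 0.02 to 0.82, and Ly86 from 0.19 to 1.31. From 3 h on, Spp1 rose from 0.87 to 3.07, Gfap from 0.38 to 2.03 and Ctsc from -0.20 to 1.36. Fos, Atf3 and Tnfrsf12a were lower at 24 than at 6 h. Fos had means of 5.67, 4.11 and 3.36 before 1.75, Atf3 3.65, 3.44 and 2.55 before 1.79, and Tnfrsf12a 2.52, 2.79 and 2.25 before 1.36. The immediate early list as a whole had 16 of 20 members induced at 3 h, with a median of 1.88. The chemokines Ccl4 and Ccl3 were high from 3 h on, with Ccl4 at 4.94, 5.31 and 5.63 and Ccl3 at 2.79, 3.00 and 2.88.

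Repressed genes were mostly called from 12 h on. Apln changed direction, from 0.83 at 3 h, 0.22 at 6 h and -0.35 at 12 h to -1.16, and was lower than at 6 h by a log2 difference of -1.38 ± 0.20 (SE, adjusted p = 0.00247). Insig1 went from 0.86 at 3 h to -0.68. The cholesterol list had a median of 0.13 at 3 h, -0.29 at 6 h and -0.78 at 12 h, when 19 of its 24 genes were repressed. P2ry12 was at -0.35, -1.02 and -1.45 before -1.15. Erythroid genes, at -0.01 here, had 6 and 7 members induced at 6 and 12 h. The glutamate and GABA receptor list had 9 repressed genes at 12 h and 1 at 24 h.

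**Figure D4:**
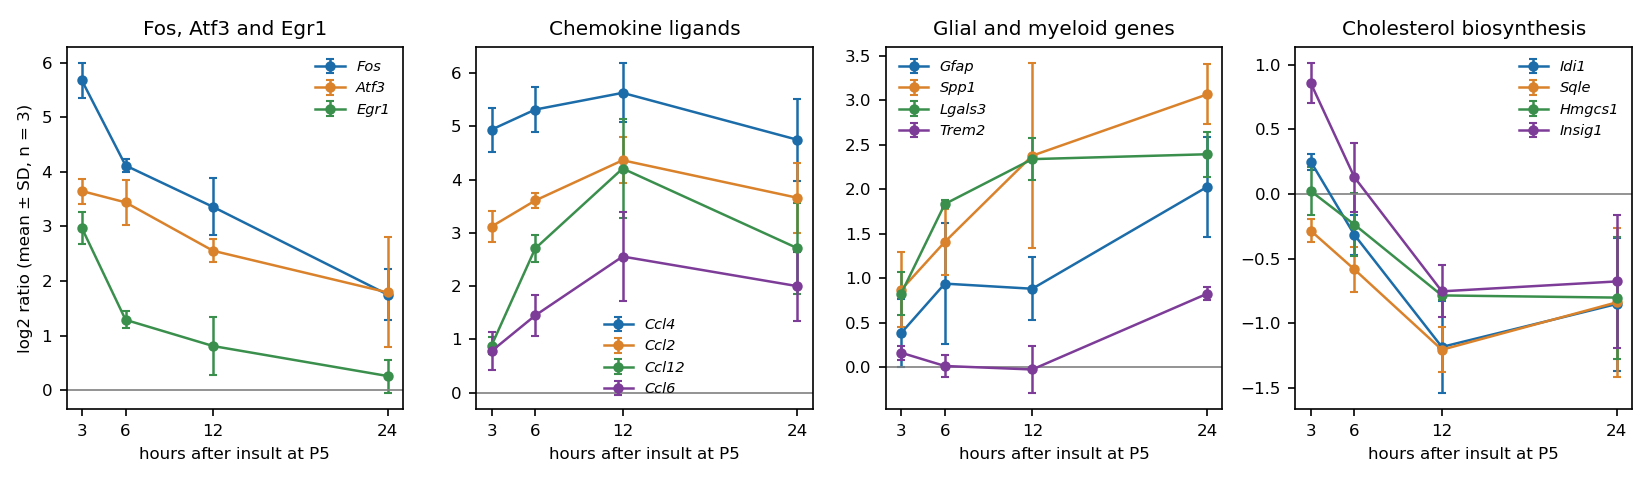
Mean log2 ratio ± SD (n = 3 arrays per time) against hours after HI at P5 (3, 6, 12 and 24) for genes of 4 groups. Fos goes from 5.67 to 1.75, Ccl4 stays between 4.75 and 5.63, Trem2 is at 0.16 or less until 12 h and at 0.83 at 24 h, and Idi1 goes from 0.25 at 3 h to -0.85 at 24 h.

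The same interval after HI at P10 was set against P5, with separate pools. HI RNA carried Cy5 at both ages, and the part of a shared dye difference in the overlaps was not tested. Of the 219 induced genes, 201 were also induced at P10, where 10.1% of all genes tested were, and their median was 1.42 against 0.92. Of the 44 repressed genes 14 were repressed at P10, against 3.86% of all genes, with a median of -0.46. The difference itself passed for 38 of the 219 as higher at P10 and for 1, Folr2, as lower, where 4.53% and 0.801% of all genes did. These genes were chosen by their P5 24 h values, which also enter the difference, so the differences are given as descriptions. Folr2, a folate receptor of macrophages, gave 1.11, 1.04 and 0.66 at P5 and a mean of 0.17 at P10, a log2 difference of -0.77 ± 0.23 (SE, adjusted p = 0.0405). Ptx3, a secreted pattern recognition protein, had means of 1.99 at P5 and 4.39 at P10, Msn 0.86 and 2.53, Vim 1.54 and 2.85, and Cebpb 0.80 and 2.12. The chemokine Ccl2 was at 3.66 and 3.92 and Ccl4 at 4.75 and 5.52, and neither difference passed, with an SE of 0.34 and 0.50. Cholesterol genes had a median of -0.36 at P10 with 2 repressed.

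Over all genes, 503 were higher and 89 lower at P10, and these counts hung on single arrays. They were 21 and 1 without P5 replicate 1, 26 and 1 without P5 replicate 2, 786 and 142 without P5 replicate 3, 19 and 0 without P10 replicate 1, 395 and 58 without P10 replicate 2, and 1065 and 378 without P10 replicate 3. Newly normalized signals gave 1 and 0. P5 and P10 arrays lay on different slides, so age and slide cannot be told apart.

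**Figure D5:**
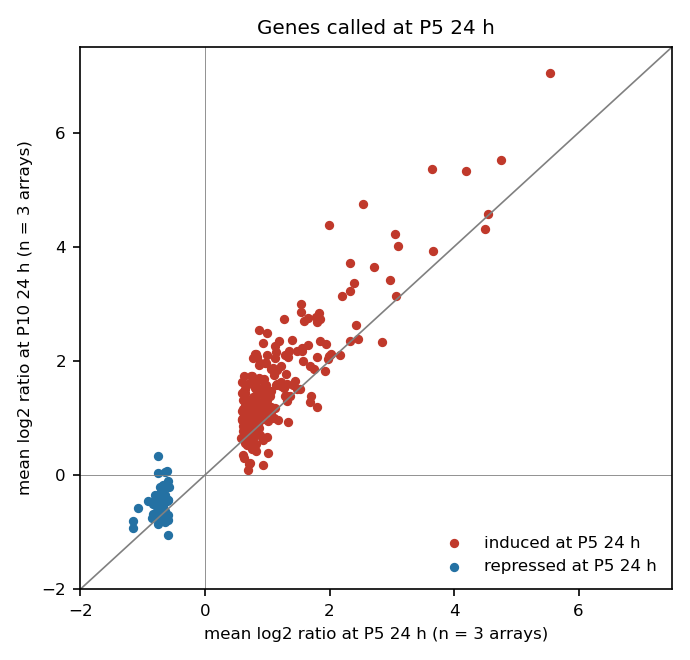
Mean log2 ratio at P10 24 h (y axis) against that at P5 24 h (x axis) of each gene called at P5 24 h, with the line of equal values. Induced genes have a median of 0.92 at P5 and 1.42 at P10, repressed genes of -0.69 and -0.46.

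Development was read in naive pools of other arrays. Between P2 and P15, 184 of the 219 induced genes were tested, of which 67 (36.4%) were higher at P15 and 14 (7.61%) at P2, where 14.1% and 14% of the genes tested at P5 24 h were. A further 103 (56%) were not called, against 71.9%. Over all 12458 genes tested between these ages the shares were 15.1% and 14.5%. Trem2, Tyrobp, Gfap, C4b, Cd14 and Aqp4 were among those higher at P15, and Spp1, Vim, Nes and Ccl3 among those higher at P2. Of the 44 repressed genes 13 (29.5%) were higher at P15, such as Gabrd, P2ry12 and Rasl10a, and 7 (15.9%) at P2, such as Tubb3, Sqle and Idh1. These shares describe the genes called and were not tested.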

How the data were processed

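RNA of pooled NMRI mouse hemispheres was hybridized on two-color Agilent whole mouse genome arrays. The authors read the scans with Agilent's Feature Extraction software (10.5.1.1). Of the deposited intensity columns, spot medians and background medians are raw. The processed signals had, per the file headers, local background removed and both dyes balanced by Lowess, 1 array at a time, and arrays were not scaled to each other. The deposited log10 values are the ratio of red over green processed signal, and the series table repeats them.

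Spots flagged by the program (from 190 to 301 on the 3 arrays) and 1377 control spots were left out, and spots of a probe were averaged. Of 39429 probes 27437 were named through RefSeq, giving 20835 genes, each read on its brightest probe. A further 20 induced and 17 repressed probes without a RefSeq gene are not described. A probe was tested when its mean processed signal reached 100 in either dye and 2 or more ratios existed (18204 probes). A probe below this minimum in naive pools was thus tested only when its HI signal reached it. This can raise the medians and induced shares of lists with many untested members. limma 3.58.1 (R 4.3.3) was fitted to the log2 ratios of all 24 HI arrays, each combination of age and time being 1 coefficient tested against 0, with Benjamini-Hochberg adjustment over all probes tested. A call needed both an adjusted p below 0.05 and more than a 1.5-fold change. Differences between groups were contrasts of this fit. P15 and P2 were compared on 75th percentile scaled Cy3 signals with a 2-fold limit. A fold bound was taken against the lowest signal well above background where the naive dye was not well above background on any array.

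Genes named are the 15 called genes of highest and of lowest mean ratio, members of 32 gene lists, repressed genes, and the 10 largest called differences in each direction from 12 h and from P10. Genes named for differences from 3 and 6 h were chosen after their values were seen. Members and lists were chosen with earlier results of these data known, and lists carry counts and medians only. Promoters are the 250 bases before the start from RefSeq, found for 9411 of the 11804 genes. Sqle and Fdps have no sequence shown. Sequencing depth does not apply to arrays. Precision is limited by 3 arrays per group. The p-values measure the spread between pools within groups, shared over all 24 HI arrays and not taken from these 3 alone. The groups differed in it, with a median SD between arrays of 0.132 at P5 24 h and 0.2 at P10 24 h.

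Replicate numbers, which are slides within an age, were checked as pairs: the deviations of same-numbered arrays from their group means correlated at 0.152, 0.102 and 0.143 between 24 and 12 h, 0.251, 0.198 and 0.28 between 24 and 6 h, and 0.0941, 0.16 and 0.31 between 24 and 3 h. The replicate block took the numbers to pair 24 h with 12, 6 and 3 h, and the main fit used no pairing. Alternatives changed the filter, the arrays in the fit, the block, the dye bias, the normalization, the probe choice, the test and the arrays left out. limma with an unadjusted p was added after the data were seen. The calling step was tested on simulated data. Plots used matplotlib 3.10.9 under Python 3.11.15.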

Additional observations from a re-analysis of the deposited data

Results flagged for a closer look

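The following genes were called at P5 24 h and had the largest log2 differences from another group among those passing in limma. The same P5 24 h values chose these genes and enter the difference, so the values are given as descriptions. Between P10 and P5 at 24 h, Ptx3 was higher at P10 by 2.40, Msn by 1.67, Emp1 by 1.5, Tubb6 by 1.47, Plek by 1.46, Ier3 by 1.38, Cebpb by 1.32, Vim by 1.31, Tor3a by 1.30 and Anxa4 by 1.29, and Folr2 was lower, with a difference of -0.77. All 11 lost the call without P5 24 h replicate 1 and with newly normalized signals, 10 of the 11 without P5 24 h replicate 2 and 10 without P10 24 h replicate 1. The P10 comparison has the slide confounded with age.

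Within P5, 24 h exceeded 6 h for Fam111a (1.18), Ly86 (1.13), Aqp4 (0.83), Trem2 (0.81) and Gusb (0.80). It was lower for Fos (-2.37), Atf3 (-1.65), Tnfrsf12a (-1.43), Apln (-1.38) and Cited1 (-1.09). Against 3 h it was higher for Spp1 (2.20), Gfap (1.64), Lgals3 (1.57), Ctsc (1.56) and Gbp3 (1.49) and lower for Fos (-3.92), Ccn1 (-2.07), Apln (-2.0), Atf3 (-1.86) and Insig1 (-1.54). Fam111a, a protease linked to replication, gave 1.15, 0.34 and 0.70 on the 3 arrays at 24 h and means of -0.56, -0.45 and -0.04 before. Ccn1, a secreted matrix protein, had means of 3.14, 2.36 and 1.76 before 1.07. Over all genes, the counts higher and lower than at 6 h fell from 40 and 52 to 4 and 9 without 24 h replicate 3.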

How the results depend on the processing

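Alternatives at 24 h were run on 136 of the called genes named, and none of these changed sign. Leaving out an array could not change it, since all called genes lay on the same side of 0 on the 3 arrays. A changed filter or test alone left the log2 ratio as it was. Of the 136 genes, 86 lost their call with normexp and loess. By the methods' test after Benjamini-Hochberg adjustment all 136 did. Induced and repressed counts (219 and 44) became 82 and 9 with normexp and loess from raw medians, 0 and 0 by the methods' test against zero after Benjamini-Hochberg adjustment, 170 and 26 by that test unadjusted, 255 and 69 without the signal filter, and 195 and 29 with the 3 arrays alone. Leaving out each array gave 149 to 179 induced and 19 to 60 repressed genes, with 19 repressed without replicate 1, and 106 and 13 genes were called under all 3. The replicate block, which treats the number as a pairing, gave 246 and 45 at 24 h. Between 24 and 6 h, where the main counts were 40 higher and 52 lower, it gave 85 and 83, slide as random block 86 and 85, normexp and loess 53 and 4, an unadjusted p 142 and 131, and leaving out each array 4 to 32 and 9 to 37 (32 and 37 without 24 h replicate 1, 10 and 18 without 2, 4 and 9 without 3, and 18 and 25, 5 and 9, 13 and 37 without 6 h replicates 1, 2 and 3). The block changed no other count over all genes by over 1.5 times. With it 10 interferon response genes were induced against 8, 19 reactive astrocyte genes against 17 and 1 sex-linked gene against 0. The other list counts it moved stand beside those lists. With normexp and loess the induced counts were 2 of interferon response, 3 of cytokine receptor, 3 of complement, 12 of activated microglia and 9 of reactive astrocyte genes, and 6 cholesterol genes were repressed. Also induced were 4 oxidative stress genes and 1 each of resting microglia, antigen presentation, matrix and endothelial genes. Immediate early, p53 and apoptosis, neutrophil, border macrophage and proliferation lists had 0 induced. Resting microglia, hypoxia, endothelial, and glutamate and GABA receptor lists had 0 repressed. Between 24 and 3 h (116 and 140) the counts were 45 and 92 with normexp and loess and 211 and 202 at an unadjusted p, and 55 to 87 and 85 to 117 with each array left out (87 and 90, 67 and 106, 55 and 115 without 24 h replicates 1, 2 and 3, and 65 and 85, 71 and 117, 58 and 106 without 3 h replicates 1, 2 and 3). Between 24 and 12 h (0 and 0) they were 1 and 1 with slide as random block, 25 and 50 at an unadjusted p, and 0 in every leave-out. Between P10 and P5 (503 and 89) they were 1 and 0 with normexp and loess, 683 and 305 at an unadjusted p, and 19 to 1065 and 0 to 378 with each array left out. Between P15 and P2 (1887 and 1803) they were 2997 and 2137 without the signal filter, and 1785 to 2026 and 1726 to 1873 with each array left out. The causes were not tested. Genes near background have compressed or bounded ratios, and no dye swap exists for HI arrays, so a dye difference of a gene adds to its 24 h ratio but cancels between time points.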

Other observations

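Tubulin genes, chosen after their values were seen, went in both directions. Tubb3, the neuronal beta-tubulin, gave -1.21, -0.88 and -0.65 on replicates 1 to 3, Tuba1a -0.80, -0.86 and -0.72, Tuba4a -0.73, -0.66 and -0.70, and Tubb5 -0.83, -0.74 and -0.50, and all 4 were repressed. Tubb6 (0.72, 1.23 and 1.85) and Tuba1c (1.03, 1.28 and 1.36) were induced. The 4 repressed genes had means from -0.58 to -0.10 at 3 h and from -1.01 to -0.75 at 12 h, so that their lower values preceded 24 h, and the 2 induced genes had means of 1.40 and 0.78 at 3 h. Probes of near-identical tubulin genes can share signal.

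Other repressed genes outside the lists included the activin antagonist Fst (-0.75), the chemokine-scavenging receptor Ackr2 (-0.72), the lipase Pnpla3 (-0.71) and the axon guidance receptor Robo3 (-0.64).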
